A study of Mus musculus with 6 samples.

Results

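The transcription factor p53, encoded by Trp53, and 9 genes that p53 is known to activate were described here in mouse kidney after ischemia-reperfusion injury (IRI), in which blood flow to the kidney is interrupted and then restored. The genes were chosen by symbol, and each of the 10 symbols matched 1 of the 21367 genes in the deposited table. Kidneys of 3 Ptpn6+/mev mice were compared with those of 3 wild-type littermates, all 7 weeks old and on a C57BL/6 background. Every mouse, wild type included, had the right kidney removed and the left renal pedicle clamped for 34 min, and mRNA of the left kidney was sequenced after 24 h of reperfusion. Ptpn6 encodes the tyrosine phosphatase SHP-1, and the motheaten viable (mev) allele is a germline splice-site mutation carried in every cell on 1 of the 2 copies of the gene. The labels call these mice SHP1 knockdown. Each library came from 1 mouse, so n = 3 per group throughout. Kidneys without IRI were not analysed here, so the values compare 2 genotypes after injury and say nothing about the response to injury itself.

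DNA breaks, oxidative stress and stalled replication activate the kinases ATM and ATR, which stabilise p53 protein, and p53 then raises transcription of genes that halt the cell cycle, limit growth signalling, repair DNA or start apoptosis. Regulation of p53 is mostly at the level of the protein, so the mRNA of its targets, rather than the mRNA of Trp53, is the usual readout of its activity. In the kidney, p53 and Cdkn1a are known for their part in the response of tubular epithelial cells to ischemia. Several of the targets, among them Cdkn1a, Gdf15, Sesn2 and Btg2, are also induced without p53 by other stress pathways.

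The total estimated count ranged from 10271590 to 12361745 per library, and 13036 genes had enough counts to be tested. The kidney markers Umod (1628 to 2556 FPKM, a fragment count scaled to transcript length and to library size) and Slc34a1 (176 to 313 FPKM) were present in every library, as was the tubular injury marker Havcr1 (1087 to 1565 FPKM). The library of wild type 2 stood apart from the other 5. On the first principal component, which held 46.2% of the variance, it lay at 53.9 while the others lay between -17.5 and -3.76. Its summed FPKM over the marker list of endothelium was 0.398 times the mean of the other wild-type libraries, over that of macrophages 0.574 times and over that of fibroblasts 0.190 times, whereas that of tubular injury was 1.23 times and that of the distal nephron, most of it from Umod, 1.14 times. The fold change of each of the 10 genes, and the calls in each pathway list, are therefore given with and without wild type 2. Red blood cell and adipose markers split the libraries differently. For red blood cells the summed FPKM was 1633 in Ptpn6+/mev 1, 1298 in wild type 1 and 502 to 645 elsewhere. For adipose tissue it was 79.2 in wild type 1, 66.6 in wild type 3, 58.8 in Ptpn6+/mev 1 and at most 1.32 elsewhere. Ptpn6 itself measured 11.85, 14.66 and 13.61 FPKM in Ptpn6+/mev mice and 17.47, 10.87 and 15.44 FPKM in wild-type mice (log2 fold change -0.19, SE 0.17, FDR 0.715, edgeR quasi-likelihood test). The groups overlapped, and because mev is a splice mutation the total mRNA of Ptpn6 does not check the genotype.

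p53 binds DNA as a tetramer, through a pair of 10-base motifs, the p53 decamers. The 300 bases around each RefSeq transcription start of these genes (250 before it and 50 after it, GRCm38.p6) were searched for the p53 decamer on both strands, and the motif reads the same on both. Only exact matches to RRRCWWGYYY (R is A or G, W is A or T, Y is C or T) were counted, so decamers with a mismatch were missed. Windows were found for 8 of the 10 genes, 10 windows in all, and not for Zmat3 and Trp53inp1. A decamer lay in 4 of the 10 windows, 1 each of Trp53, Cdkn1a, Mdm2 and Ccng1, against 8.36% of the 32851 windows of all genes in the same table. The 250 bases before these 4 starts are shown because they hold every decamer found in these windows, and capitals mark the decamers.
Cdkn1a, chr17:29090729-29090978, plus strand: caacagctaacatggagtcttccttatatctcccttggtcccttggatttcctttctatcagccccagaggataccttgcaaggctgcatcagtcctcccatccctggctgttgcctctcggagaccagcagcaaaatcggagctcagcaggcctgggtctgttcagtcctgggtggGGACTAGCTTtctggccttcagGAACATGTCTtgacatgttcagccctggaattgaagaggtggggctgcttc
Trp53, chr11:69580109-69580358, plus strand: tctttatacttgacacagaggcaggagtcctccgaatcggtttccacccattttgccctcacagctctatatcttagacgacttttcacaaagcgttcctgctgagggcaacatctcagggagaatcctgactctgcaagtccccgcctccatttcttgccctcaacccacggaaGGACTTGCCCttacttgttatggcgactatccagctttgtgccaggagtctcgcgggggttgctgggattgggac
Mdm2, chr10:117710759-117711008, minus strand: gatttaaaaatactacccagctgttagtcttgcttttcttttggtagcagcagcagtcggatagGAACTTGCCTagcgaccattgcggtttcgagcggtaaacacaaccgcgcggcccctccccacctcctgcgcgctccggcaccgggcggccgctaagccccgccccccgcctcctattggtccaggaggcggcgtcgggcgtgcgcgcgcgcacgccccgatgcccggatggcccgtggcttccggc
Ccng1, chr11:40755287-40755536, minus strand: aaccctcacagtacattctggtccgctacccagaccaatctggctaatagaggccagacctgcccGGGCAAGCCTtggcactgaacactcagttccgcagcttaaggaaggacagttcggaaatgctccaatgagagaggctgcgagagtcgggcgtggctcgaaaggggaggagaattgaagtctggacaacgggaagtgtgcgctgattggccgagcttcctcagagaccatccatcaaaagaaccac
The Cdkn1a window shown was the only 1 of the 10 with 2 exact decamers separated by 0 to 13 bases. Such a pair was found in 24 of the 32851 windows (0.0731%). Its decamers, GGACTAGCTT and GAACATGTCT, begin 73 and 51 bases before the start of that window. Cdkn1a had a second window, chr17:29093519-29093818, around a start further downstream, and it held 0 decamers. The single exact decamers were GGACTTGCCC in the Trp53 window (beginning 75 bases before the start), GAACTTGCCT in that of Mdm2 (186 bases before) and GGGCAAGCCT in that of Ccng1 (185 bases before). The 10 bases adjoining GAACATGTCT in Cdkn1a (tgacatgttc) and GGGCAAGCCT in Ccng1 (agacctgccc) each miss the pattern at 1 base. They were therefore not counted or capitalised, and the shares above hold for exact matches only. Sequences of 4 bases from the centre of the decamer were also searched alone, though not CTAG, the centre of the first Cdkn1a decamer. CATG, which is also the centre of the second Cdkn1a decamer, lay in 4 of the 10 windows against 61.1% of all, and CAAG or its reverse complement CTTG in 9 of the 10 against 90.6%, so these short motifs were common everywhere. The established p53 elements of Mdm2 lie in its first intron, outside the windows searched. A match is a description of the sequence and does not show that p53 was bound in these kidneys.

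On the FPKM scale, which allows for length, the levels of the 10 mRNAs ran from the highest, Gdf15 (mean 80.3 FPKM over the 6 libraries, range 60.41 to 105.3) and Cdkn1a (68.7 FPKM, range 49.84 to 102.51), to the lowest, Trp53inp1 (2.65 FPKM, range 1.52 to 3.79). Trp53 (42.0 FPKM), Ccng1 (39.2 FPKM) and Btg2 (35.5 FPKM) followed Cdkn1a, then Mdm2 (24.3 FPKM), Phlda3 (22.8 FPKM), Sesn2 (16.8 FPKM) and Zmat3 (9.15 FPKM). Neighbours in this order overlapped in their ranges over libraries, apart from 4 steps. Those were Cdkn1a over Trp53, Btg2 over Mdm2, Sesn2 over Zmat3 and Zmat3 over Trp53inp1. The Zmat3 level is the least certain on this scale, because the transcript length implied by its count and FPKM varied from 6.35 to 7.82 kb between libraries, while for each of the other 9 genes it varied by a factor of at most 1.03. Counts of the 10 genes ranged from 102 to 1929 per library.

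**Figure D1:**
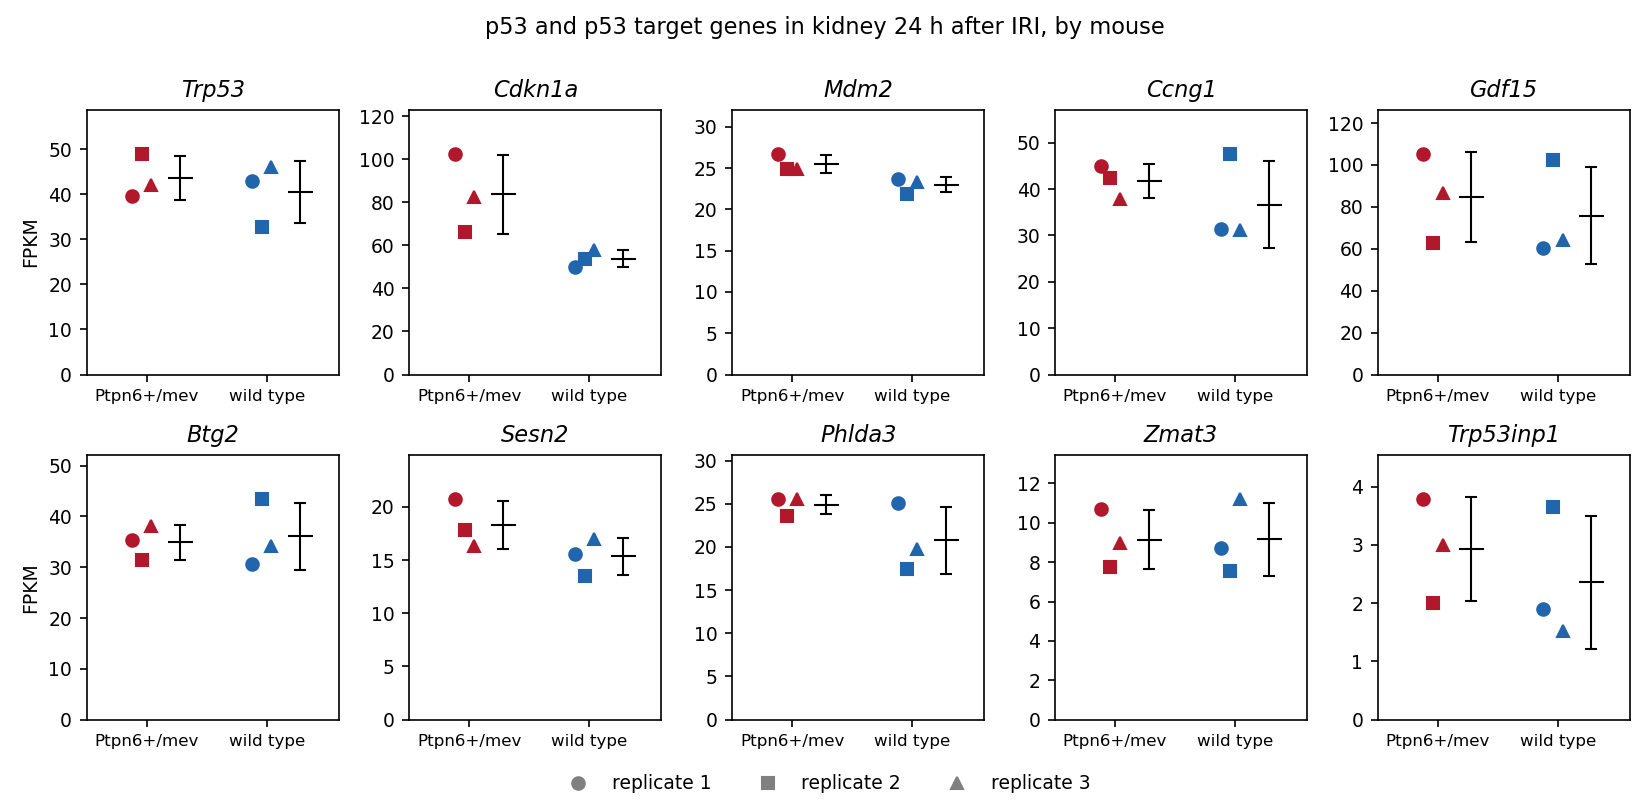
FPKM of Trp53 and 9 p53 target genes (y axis, linear, from 0) in each kidney library of Ptpn6+/mev mice (red) and wild-type mice (blue) 24 h after IRI, with the mean and SD of each group (n = 3) in black. The groups are apart for Cdkn1a and Mdm2, and wild type 2 (blue square) is the highest wild-type library for Ccng1, Gdf15, Btg2 and Trp53inp1.

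None of the 10 genes differed between genotypes at FDR < 0.05 in edgeR's quasi-likelihood test, which called 18 of all 13036 genes (0.138%). Cdkn1a alone had an unadjusted p under 0.05, against 12.2% of all genes. The edgeR exact test and the DESeq2 Wald test, which called 2.99% and 2.97% of all genes, also called 0 of the 10, and limma-voom with sample quality weights, which called 3.77%, called 1, Cdkn1a. The fold change was positive for 9 genes and negative for Btg2, against 49.5% positive among all genes. The median log2 fold change of the 10 was 0.096 against -0.0024 for all genes tested. Several signs depended on single libraries. Ccng1, Gdf15 and Zmat3 were also negative without wild type 1, and Ccng1, Gdf15 and Trp53inp1 without wild type 3. In the fit of all 6 libraries, apart from Cdkn1a, the size of the log2 fold change was at most 0.23. For 9 of the 10 genes the 95% interval lay within a halving and a doubling, the exception being Trp53inp1. Because RNA was taken from kidney tissue and not from sorted cells, fewer cells of a type and less RNA per cell cannot be told apart.

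**Figure D2:**
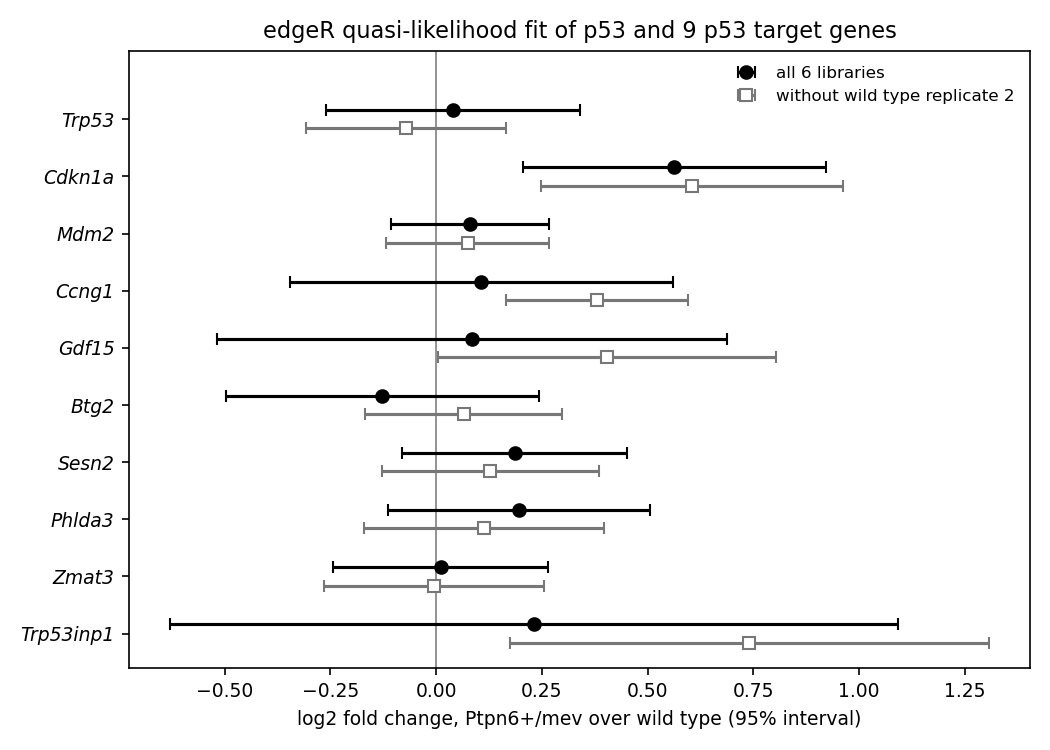
log2 fold change of each gene, Ptpn6+/mev over wild type, from edgeR's quasi-likelihood fit, with 95% intervals as bars, for all 6 libraries (black circles) and without wild type 2 (open squares). The interval of Cdkn1a lies above 0 in both fits, and those of Ccng1, Gdf15 and Trp53inp1 lie above 0 only without wild type 2.

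Trp53, the source of the pathway, measured 39.66, 48.96 and 41.96 FPKM in Ptpn6+/mev mice and 42.84, 32.65 and 45.96 FPKM in wild-type mice. The groups overlapped, and wild type 2 was the lowest of the 6 libraries. The means were 43.5 ± 4.84 and 40.5 ± 6.96 FPKM (SD), and the log2 fold change was 0.039 (SE 0.13, 95% interval -0.26 to 0.34, FDR 0.942, edgeR). It was -0.071 without wild type 2 (FDR 0.778, edgeR). Trp53 lies on the plus strand of chr11:69580359-69591873 (GRCm38).

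Cdkn1a encodes p21, an inhibitor of cyclin-dependent kinases that arrests the cell cycle, and showed the largest difference of the 10 in the fit of all 6 libraries (Trp53inp1 did without wild type 2). It measured 102.51, 66.04 and 82.4 FPKM in Ptpn6+/mev mice and 49.84, 53.72 and 57.89 FPKM in wild-type mice. All 3 Ptpn6+/mev libraries lay above all 3 wild-type libraries, but they spread much more widely, from 66.04 to 102.51 FPKM. The means were 83.7 ± 18.3 and 53.8 ± 4.03 FPKM (SD), and the fitted fold was 1.48, with a 95% interval of 1.15 to 1.90. On the log2 scale this was 0.56 (SE 0.16, unadjusted p = 0.00677, FDR 0.196, edgeR quasi-likelihood test fitted over all genes). The adjusted p was 0.0532 in the edgeR exact test, 0.0513 in DESeq2 and 0.0364 in limma-voom with sample quality weights, so it fell on either side of 0.05 by the choice of test. When single libraries were omitted, the log2 fold change ran between 0.40 (without Ptpn6+/mev 1) and 0.70 (without Ptpn6+/mev 2), and the edgeR FDR between 0.0933 and 0.551. The fit without wild type 2 gave 0.60 (FDR 0.0933, edgeR). The gene lies at chr17:29090976-29100727 on the plus strand, and its exons overlap those of AC167363.2, a model annotated on the opposite strand. The sources do not state a strand-specific library, so reads of the overlap cannot be assigned.

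Markers of cycling cells were also higher in the same mice. Their summed FPKM was 31.2 to 49.1 in Ptpn6+/mev mice and 10.3 to 16.8 in wild-type mice. In FPKM, 7 of the 7 markers were higher in every Ptpn6+/mev library, against 14% of all genes, and none was at 0. The most abundant of them, Cdk1 (log2 fold change 1.49, FDR 0.0685) and Birc5 (1.33, FDR 0.102), did not pass the quasi-likelihood test, and Ccna2, named here after its values were seen, did (2.05, FDR 0.0398, edgeR). The edgeR exact test, DESeq2 and limma-voom each called all 7 markers higher, against 2.99%, 2.97% and 3.77% of all genes called. Once wild type 2 was omitted, 4 of them, Cdk1 included, passed the quasi-likelihood test, against 1.8% of all genes. Across libraries the order was not that of Cdkn1a, since Ptpn6+/mev 2 had the lowest Cdkn1a of its group and the highest Cdk1 (19.64 FPKM, against 11.71 and 14.49 in the other two). The summed FPKM of proximal tubule markers was 468 to 577 in Ptpn6+/mev mice and 621 to 746 in wild-type mice. Of the 8 markers, 3 were lower in every Ptpn6+/mev library and none was at 0. Among all genes, the groups did not overlap in FPKM for 20.4% in either direction and for 14% with Ptpn6+/mev higher. The most abundant of these, Slc34a1 (-0.34, FDR 0.567) and Slc22a6 (-1.11, FDR 0.0774), did not pass the quasi-likelihood test, whereas Slc22a8, named here after its values were seen, was lower (FDR 0.0443, edgeR). Slc22a6 was called lower by the other tests, which called 3 (exact test), 3 (DESeq2) and 4 (limma-voom) of the 8 markers, all lower. The quasi-likelihood test without wild type 2 also called Slc22a6 lower, among 4 markers that were all lower. Over all genes these fits called 2.99%, 2.97%, 3.77% and 1.8%, in that order. The summed FPKM of tubular injury markers, most of it from Spp1, overlapped between the groups (26152 to 32050 and 29572 to 38335). Of the 7 markers, 2 were higher in every Ptpn6+/mev library, against 14% of all genes in FPKM, and none was at 0. The 2 were Havcr1 (0.27, FDR 0.325, edgeR quasi-likelihood test) and Vcam1 (1.05, FDR 0.188), named here after its values were seen. The most abundant markers, Spp1 (-0.38, FDR 0.331) and Clu (0.079, FDR 0.879), did not pass this test. The exact test and DESeq2 called Vcam1 higher, limma-voom Havcr1, and the quasi-likelihood test Krt20 once wild type 2 was omitted. The part of these cell populations and of tubular injury in the Cdkn1a difference was not tested.

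Mdm2 encodes the ubiquitin ligase that marks p53 for degradation and is itself a p53 target, which closes a negative feedback loop. It measured 26.74, 24.92 and 24.91 FPKM in Ptpn6+/mev mice and 23.72, 21.93 and 23.38 FPKM in wild-type mice. The groups were apart, and Mdm2 was the least variable of the 10 genes, with a coefficient of variation of 4.13% in both groups. The difference was nonetheless small, at 25.5 ± 1.05 against 23.0 ± 0.951 FPKM (SD), and the log2 fold change was 0.080 (SE 0.081, 95% interval -0.11 to 0.27, FDR 0.767, edgeR). It was 0.075 without wild type 2 (FDR 0.706, edgeR). Cdkn1a and Mdm2 were the 2 of the 10 genes whose groups did not overlap in FPKM with Ptpn6+/mev higher, a pattern seen in 14% of all genes tested. FPKM and count-based scaling split this background differently. Of 2656 genes (20.4% of all) whose groups were apart in FPKM, 1824 were higher in Ptpn6+/mev mice, whereas after TMM scaling of the counts 1257 of 2535 were (9.64% and 19.4% of all genes). Both Cdkn1a and Mdm2 were apart on the second scale too.

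Btg2, an antiproliferative co-factor of mRNA deadenylation, and Ccng1, whose product cyclin G1 recruits a phosphatase to Mdm2, were the genes for which wild type 2 was the highest of all 6 libraries in FPKM. Ccng1 measured 45.06, 42.46 and 37.82 FPKM in Ptpn6+/mev mice and 31.31, 47.61 and 31.09 FPKM in wild-type mice. Apart from wild type 2, the wild-type libraries lay below all 3 Ptpn6+/mev libraries. The means were 41.8 ± 3.67 and 36.7 ± 9.47 FPKM (SD), and the log2 fold change was 0.11 (SE 0.20, 95% interval -0.35 to 0.56, FDR 0.891, edgeR). Without wild type 2 it was 0.38 (SE 0.10, 95% interval 0.17 to 0.60, unadjusted p = 0.00284, FDR 0.0834, edgeR), which did not pass the threshold either. Btg2 measured 35.3, 31.32 and 38.02 FPKM in Ptpn6+/mev mice and 30.66, 43.42 and 34.19 FPKM in wild-type mice. The groups overlapped, with a log2 fold change of -0.13 (SE 0.16, 95% interval -0.50 to 0.24, FDR 0.824, edgeR) that became 0.065 without wild type 2 (FDR 0.796, edgeR).

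Gdf15 encodes a secreted stress cytokine of the TGF-beta superfamily, and Trp53inp1 a nuclear protein that promotes p53 phosphorylation and autophagy. Gdf15 measured 105.3, 62.54 and 86.7 FPKM in Ptpn6+/mev mice and 60.41, 102.39 and 64.4 FPKM in wild-type mice. Each group therefore held both high and low libraries, and the 2 highest, above 100 FPKM, were Ptpn6+/mev 1 and wild type 2. The means were 84.8 ± 21.4 and 75.7 ± 23.2 FPKM (SD), and the log2 fold change was 0.085 (SE 0.26, 95% interval -0.52 to 0.69, FDR 0.936, edgeR). Leaving out wild type 2 gave 0.40 (95% interval 0.0033 to 0.80, FDR 0.287, edgeR). Trp53inp1 measured 3.79, 2.01 and 3 FPKM in Ptpn6+/mev mice and 1.9, 3.65 and 1.52 FPKM in wild-type mice. The same 2 libraries were again the highest. The means were 2.93 ± 0.892 and 2.36 ± 1.14 FPKM (SD), the most variable of the 10 genes relative to the mean, and the log2 fold change was 0.23 (SE 0.37, 95% interval -0.63 to 1.09, FDR 0.869, edgeR). Leaving out wild type 2 gave 0.74 (SE 0.25, 95% interval 0.17 to 1.31, unadjusted p = 0.0157, FDR 0.176, edgeR).

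Without wild type 2, 4 of the 10 genes (Cdkn1a, Mdm2, Ccng1 and Trp53inp1) were higher in every Ptpn6+/mev library than in both remaining wild-type libraries, against 21.1% of all genes tested in those 5 libraries. The fit then called 237 of 13177 genes (1.8%) and 0 of the 10, of which 4 had an unadjusted p under 0.05 against 17.2% of all genes. The high wild-type values of Ccng1, Gdf15, Btg2 and Trp53inp1 all came from this 1 mouse, whose endothelial markers Pecam1 (13.02 FPKM, against 48.06 and 49.2 in the other wild-type libraries) and Emcn (22.82 against 33.92 and 28.59 FPKM) and macrophage markers C1qb (17.19 against 30.07 and 28.24 FPKM) and C1qa (16.67 against 29.68 and 28.15 FPKM) were low. Fibroblast markers were low in it as well, with Col1a2 at 10.59 FPKM against 64.86 and 65.84, and Col1a1 at 7.26 FPKM against 46.8 and 46.22. Some distal nephron markers were instead high among wild-type libraries, while in FPKM Slc12a3 (132.22 against 123.63 and 141.53) and Umod (2197.61 against 2220.86 and 2154.5) were not. After TMM scaling of the counts, however, Umod was highest among wild-type libraries in wild type 2 (log2 value 12.18 against 11.81 and 11.70). Aqp2, the most abundant after Umod, was at 430.77 FPKM against 142.79 and 134.91, and, named here after their values were seen, Calb1 was at 45.59 FPKM against 18.47 and 14.46 and Slc12a1 at 45.42 FPKM against 17.3 and 15.84. The part of cell composition in these values was not tested.

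Sesn2, Phlda3 and Zmat3 act on growth signalling and mRNA stability. Sesn2 encodes sestrin 2, a leucine sensor that restrains mTORC1, and measured 20.74, 17.86 and 16.34 FPKM in Ptpn6+/mev mice and 15.61, 13.53 and 16.96 FPKM in wild-type mice. The groups overlapped through Ptpn6+/mev 3 and wild type 3, and the log2 fold change was 0.19 (SE 0.12, 95% interval -0.080 to 0.45, FDR 0.590, edgeR). It was 0.13 without wild type 2 and 0.087 without Ptpn6+/mev 1. Phlda3, whose product competes with the kinase Akt for membrane lipids, measured 25.56, 23.6 and 25.56 FPKM in Ptpn6+/mev mice and 25.05, 17.46 and 19.78 FPKM in wild-type mice. The groups overlapped through wild type 1, and the log2 fold change was 0.20 (SE 0.13, 95% interval -0.11 to 0.51, FDR 0.632, edgeR), or 0.11 without wild type 2. Zmat3, an RNA-binding zinc finger protein, measured 10.72, 7.76 and 8.96 FPKM in Ptpn6+/mev mice and 8.7, 7.56 and 11.21 FPKM in wild-type mice. Its group means were alike, at 9.15 ± 1.49 and 9.16 ± 1.87 FPKM (SD), and the log2 fold change was 0.011 (SE 0.11, 95% interval -0.24 to 0.27, FDR 0.983, edgeR), or -0.0057 without wild type 2.

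**Figure D3:**
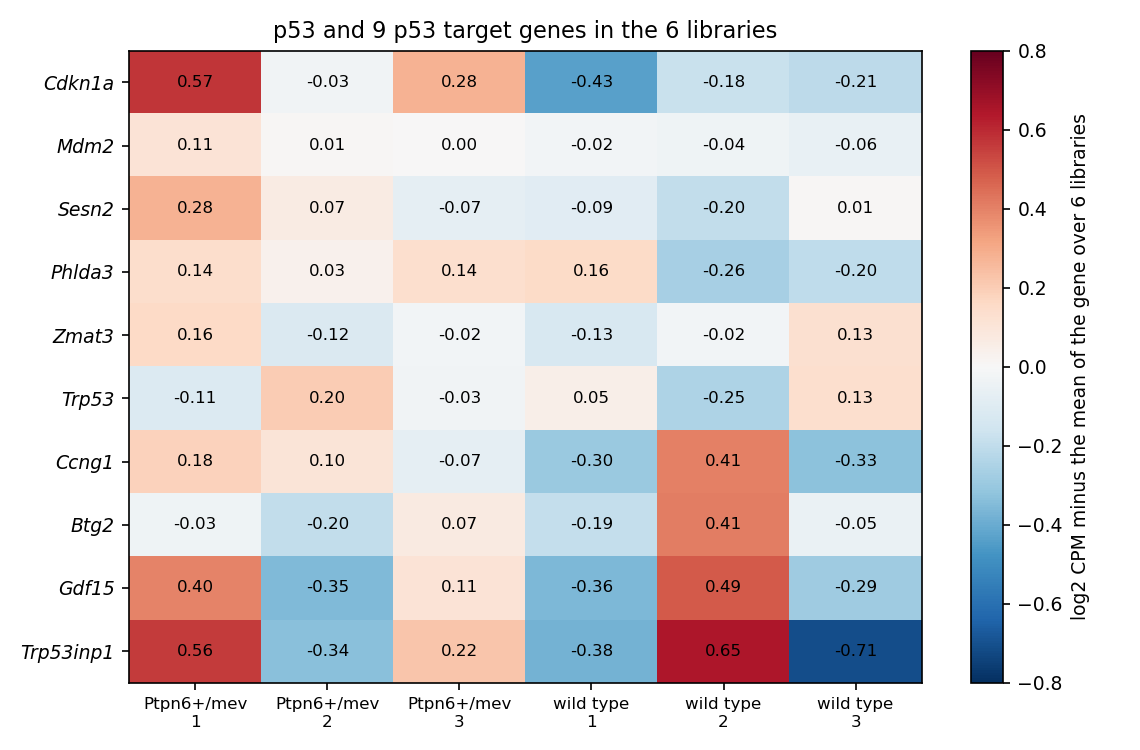
log2 counts scaled to library size (log2 CPM, after TMM scaling) of each gene in each library, minus the mean of that gene over the 6 libraries (colour scale and printed values). Ccng1, Btg2, Gdf15 and Trp53inp1 are highest in wild type 2 on this scale, and Cdkn1a is highest in Ptpn6+/mev 1 (0.57) and lowest in wild type 1 (-0.43).

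The 10 genes were also compared in how they varied from mouse to mouse. Of the 45 pairs of genes, 32 had a positive Pearson correlation of log2 CPM (counts scaled to library size) over the 6 libraries, and none had an adjusted p under 0.05 in an exact permutation test (two-sided, Benjamini-Hochberg over the 45 pairs, smallest 0.219). With 6 libraries a single pair could not have reached an adjusted p of 0.05, so this test says little about any 1 pair. Gdf15 and Trp53inp1 had the highest r, at 0.95 (exact permutation p = 0.0153, adjusted 0.219) and Spearman's rho = 0.83 (exact permutation p = 0.0583, adjusted 0.438) over 6 libraries. By rho, Ccng1 and Trp53inp1 (0.94) and Gdf15 and Btg2 (0.89) were closer. The r of Gdf15 and Trp53inp1 was 0.83 without the 2 libraries farthest from the median of Gdf15 and 0.93 without wild type 2. Trp53 ran opposite to Gdf15, with r = -0.93 (exact permutation p = 0.00556, adjusted 0.219) and rho = -0.83 (exact permutation p = 0.0583, adjusted 0.438), and r = -0.91 without the 2 libraries farthest from the median. Cdkn1a and Mdm2 had r = 0.84 (exact permutation p = 0.0333, adjusted 0.250) and rho = 0.77 (exact permutation p = 0.103, adjusted 0.613), and this r fell to 0.35 without the 2 libraries farthest from the median of Cdkn1a. All pairs share library preparation and scaling, and the libraries come from 2 genotypes.

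Other genes of the pathway were read from 4 lists. Among 13 tested regulators of p53 (of 15 in the table), 0 passed the edgeR quasi-likelihood test, and 0 did in the exact test, DESeq2, limma-voom or the fit without wild type 2. The median log2 fold change was 0.081 (0.091 without wild type 2), with 8 positive and 5 negative, and 1 gene had an unadjusted p under 0.05, the acetyltransferase Ep300, named here after its values were seen (-0.22, FDR 0.332, edgeR), against 12.2% of all genes. The most abundant were the ribosomal proteins Rpl11 (0.081, FDR 0.764), Rpl23 (0.13, FDR 0.574) and Rpl5 (0.11, FDR 0.768), which restrain Mdm2 when ribosome assembly fails. Genes for ribosomal proteins have many near-identical copies in the genome, so their counts are uncertain. In FPKM these 3 genes were lower in every wild-type library than in every Ptpn6+/mev library, but on the log2 CPM scale the groups overlapped for all 3.

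Among 27 other p53 targets, all tested, 0 passed the edgeR quasi-likelihood test, 3 had an unadjusted p under 0.05, all higher in Ptpn6+/mev mice (against 5.53% of all genes), and the median log2 fold change was 0.085 (0.11 without wild type 2), with 17 positive. With wild type 2 omitted the quasi-likelihood test again called 0. The lowest adjusted p belonged to Plk3, a stress-activated polo-like kinase, which is named here after its values were seen. It measured 48.15, 23.55 and 39.02 FPKM in Ptpn6+/mev mice and 14.88, 14.97 and 18.01 FPKM in wild-type mice. The groups were apart, the order within Ptpn6+/mev mice was that of Cdkn1a, and the log2 fold change was 1.14 (SE 0.23, FDR 0.104, edgeR). The edgeR exact test (adjusted p = 0.000649), DESeq2 (0.000514) and limma-voom with sample quality weights (0.0256) called it, as did the quasi-likelihood test once Ptpn6+/mev 2 was omitted (1.38, FDR 0.0333). Omitting another library gave an edgeR FDR of up to 0.452, and omitting wild type 2 one of 0.0570. Among the most abundant targets, the apoptosis effector Bax measured 108.68, 97.86 and 105.9 FPKM in Ptpn6+/mev mice and 81.63, 76.9 and 91.59 FPKM in wild-type mice (log2 fold change 0.24, FDR 0.330, edgeR). Sfn, which encodes 14-3-3 sigma, a G2 checkpoint protein, measured 78.14, 88.03 and 87.73 against 64.11, 56.79 and 73.79 FPKM (0.32, FDR 0.255, edgeR), and Rps27l had a log2 fold change of 0.046 (FDR 0.871, edgeR). The groups of Bax and Sfn were apart in FPKM and in log2 CPM, and those of Rps27l in FPKM only.

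Among 30 genes of DNA damage sensing and repair, all tested, 0 passed the edgeR quasi-likelihood test, while 5 had an unadjusted p under 0.05, all higher in Ptpn6+/mev mice (against 5.53% of all genes), and the median log2 fold change was 0.16 (0.20 without wild type 2) with 20 positive. Among them, and named here after their values were seen, were Brca1 (1.24, FDR 0.102), Fancd2 (1.04, FDR 0.150), Topbp1 (0.46, FDR 0.205) and Rad9a (0.37, FDR 0.324) in edgeR. Brca1 and Fancd2 act in homologous recombination and crosslink repair and are transcribed mainly in cells that replicate DNA. Brca1 measured 2.49, 2.17 and 1.65 FPKM in Ptpn6+/mev mice and 0.82, 0.59 and 1.04 FPKM in wild-type mice, so the groups were apart at a low level. The exact test and limma-voom each called 3 genes of this list, Brca1 and Fancd2 among them (against 2.99% and 3.77% of all genes), and DESeq2 called 2, Brca1 among them (against 2.97%). Once wild type 2 was omitted, the quasi-likelihood test called 1 gene, Brca1 (1.04, FDR 0.0376). The constitutive break sensors, which were the most abundant of the list, had values near 0. The log2 fold change was -0.083 for Xrcc5 (FDR 0.837), -0.030 for Parp1 (FDR 0.962) and -0.012 for Xrcc6 (FDR 0.983) in edgeR. The cycling cell markers given above were higher in the same mice, and their part in the values of Brca1 and Fancd2 was not tested.

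**Figure D4:**
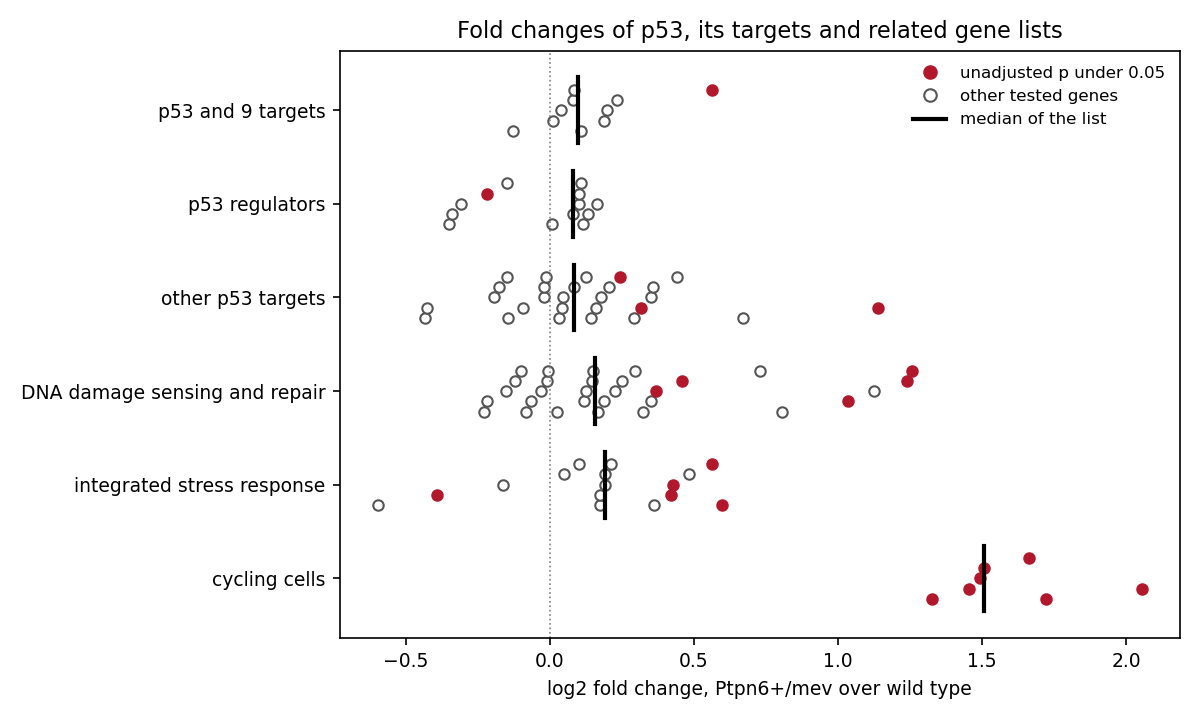
log2 fold change of each tested gene, Ptpn6+/mev over wild type, in Trp53 and its 9 targets, in 4 related lists and in the cycling cell markers, with the median of each list as a black bar and genes with an unadjusted p under 0.05 filled red. The medians of the first 5 lists lie between 0.081 and 0.19, and the cycling cell markers have a median of 1.51.

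The integrated stress response, in which Atf4 raises amino acid synthesis genes, also induces Gdf15, Sesn2 and Trib3 without p53. Of its 16 genes, all tested, 0 passed the edgeR quasi-likelihood test, 4 had an unadjusted p under 0.05 with higher values in Ptpn6+/mev mice (against 5.53% of all genes) and 1 with lower values, and the median log2 fold change was 0.19 (0.20 without wild type 2) with 13 positive. Atf4 measured 124.94, 125.44 and 128.34 FPKM in Ptpn6+/mev mice and 112.94, 104.79 and 101.74 FPKM in wild-type mice, and although the groups were apart, the log2 fold change was 0.17 (FDR 0.451, edgeR). The other two most abundant genes had negative values, Slc3a2 of -0.16 (FDR 0.661, edgeR) and Psat1 of -0.60 (FDR 0.411, edgeR). For Psat1 this rested on wild type 2 (138.45 FPKM against 74.78 and 75.78 in the other wild-type libraries), and the log2 fold change was -0.19 without it. Phgdh, the first enzyme of serine synthesis, had the lowest adjusted p and is named here after its values were seen, at 47.26, 46.6 and 43.05 FPKM in Ptpn6+/mev mice and 23.68, 26.71 and 36 FPKM in wild-type mice (0.60, FDR 0.155, edgeR). It was called by the exact test (adjusted p = 0.0194), DESeq2 (0.0238) and limma-voom (0.0300). With wild type 2 omitted, the quasi-likelihood test called 0 genes of this list, and the log2 fold change of Phgdh was 0.57 (FDR 0.0937, edgeR). The integrated stress response thus had genes in both directions, and Shmt2, a mitochondrial serine enzyme also named after its values were seen, had a log2 fold change of -0.39 (FDR 0.224, edgeR). limma-voom called it lower (FDR 0.0475) and Eif4ebp1, a repressor of cap-dependent translation, higher (FDR 0.0266), the latter also named after its values were seen.

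The deposited table also assigns genes to KEGG pathways, and its p53 signaling pathway held 67 genes, 6 of them among the 10 described above. Of the 62 tested, 0 passed the edgeR quasi-likelihood test, 14 had an unadjusted p under 0.05 and all 14 were higher in Ptpn6+/mev mice, against 5.53% of all genes. The exact test and DESeq2 each called the same 5 genes, Ccnb1, Ccnd1, Cdk1, Rrm2 and Steap3, named here after their values were seen, against 2.99% and 2.97% of all genes. Ccnb1 and Cdk1 are also among the cycling cell markers given above, which were higher in the same mice, and their part in the values of this pathway was not tested. Of these, Ccnb1, Ccnd1 and Cdk1 encode cyclins and a cyclin-dependent kinase and Rrm2 a subunit of ribonucleotide reductase. With wild type 2 omitted, the quasi-likelihood test called 6 genes of the pathway, those 5 higher and Igfbp3 lower in Ptpn6+/mev mice (against 1.8% of all genes). limma-voom also called 6, the same 5 and Cdkn1a (against 3.77%). Apart from Cdkn1a, none of these is among the 10 genes described above.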

How the data were processed

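Poly-A mRNA of 6 left kidneys was sequenced. Per the labels and the study's methods, the authors trimmed reads, aligned them to GRCm38.p5 with TopHat2 and Bowtie2, and quantified genes. The submitters' processing notes also name Cufflinks and RSEM without their roles. The study's methods give Cufflinks as the source of the FPKM values. The authors deposited 1 table of estimated counts and FPKM values. The estimated counts need not be whole (1744 of 21367 genes had fractions, none of them members), so they were rounded. FPKM values were used for levels, as deposited.

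Genes were filtered with filterByExpr, scaled by TMM and tested with the quasi-likelihood F-test of edgeR 4.0.16 (R 4.3.3, limma 3.58.1), with Benjamini-Hochberg FDR over all 13036 genes. SE was the log2 fold change divided by the square root of F. The script was tested on simulated data. DESeq2 1.42.0 and 16 alternatives in all were run. The members and lists were chosen with earlier results of these data known. Named genes were all members, Ptpn6, genes at FDR < 0.05 and the 3 most abundant of each pathway list, and the 2 most abundant of a marker list that moved with a result. Other genes are named where they passed another test or an unadjusted p of 0.05. The exceptions are Calb1 and Slc12a1, named for their levels in wild type 2. Most of these genes are marked as named after their values were seen. Krt20, Igfbp3 and Slc12a3 were also named after their values were seen, but without the mark. The labels give each mouse a replicate number. Deviations of same-numbered libraries correlated at -0.144, -0.184 and -0.130, so the numbers were not taken as pairs. Libraries of 1 group were checked for duplicates (chi-square per degree of freedom 6.49 to 45.4), and none was counted as one. Promoters were from RefSeq (GRCm38.p6), and positions from GENCODE (GRCm38). Of the names listed, Cop1 and Abhd4 were not matched to the table, Mre11 and H2ax were matched by their older symbols Mre11a and H2afx, and the study's own comparisons were not used. 1 gene of the DNA damage list is not reported here by name.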

Additional observations from a re-analysis of the deposited data

How the results depend on the processing

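Under the 16 alternatives, 145 of 160 fold changes of single members kept their direction and their side of the threshold, 1 passed it and 14 changed sign. limma-voom with sample quality weights called 1 member, Cdkn1a, and every other alternative called 0. Voom turned Trp53 to -0.039 and Btg2 to 0.083. Leaving out 1 library at a time moved Trp53 between -0.071 and 0.12, Ccng1 between -0.021 and 0.38, Gdf15 between -0.10 and 0.40, Btg2 between -0.25 and 0.065, Zmat3 between -0.069 and 0.082 and Trp53inp1 between -0.027 and 0.74. The high ends of Ccng1, Gdf15, Btg2 and Trp53inp1 and the low end of Trp53 came without wild type 2. The signs of Cdkn1a, Mdm2, Sesn2 and Phlda3 did not change. With 1 library left out, Mdm2 ran between 0.045 and 0.099, Sesn2 between 0.087 and 0.26 and Phlda3 between 0.11 and 0.33. Among other p53 targets, DESeq2, the exact test and voom each called 1 gene, and leaving out 1 library gave 0 to 1. In DNA damage sensing and repair, DESeq2 called 2, the exact test 3 and voom 3, and leaving out 1 library gave 0 to 1. In the integrated stress response, DESeq2 called 1, the exact test 1 and voom 3. The cause of these differences was not tested. Over all genes, the quasi-likelihood test called 18, against 387 in DESeq2, 390 in the exact test, 492 in voom, 52 with no filter on low counts, and between 1 (without Ptpn6+/mev 3) and 237 (without wild type 2) with a library left out. With the replicate number as a block, 0 members and 1 of all genes were called, and the adjusted p of Cdkn1a was 0.417. No library correlated best with the library of its own number. The median log2 fold change of all genes was 0.062 and 0.076 in the FPKM alternatives, against -0.0024. With 3 mice per group, the intervals of single genes limit the precision, as for Ccng1 (-0.35 to 0.56).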
